A study of Mus musculus with 6 samples.

Results

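The genes of antigen presentation by the major histocompatibility complex (MHC), which is called H2 in the mouse, were examined in satellite cells of pharyngeal and limb muscle. Members were the genes whose platform symbol starts with H2- together with 16 named genes of peptide supply, loading and regulation, B2m, Tap1, Tap2, Tapbp, Psmb8, Psmb9, Psmb10, Psme1, Psme2, Cd74, Ciita, Nlrc5, Calr, Canx, Pdia3 and Erap1. This rule took 55 genes with 95 probes, out of 19057 named genes on the array. A probe counted as detected where its deposited detection p-value was under 0.05, and 29 of the 55 genes had a probe detected on at least 3 of the 6 arrays and were tested. At an adjusted p under 0.05 no member was higher in pharyngeal pools and none was lower (0 of 29 each way), while 3.32% of all 11262 genes tested passed, 1.71% higher and 1.61% lower. At an unadjusted p under 0.05 the count was 7 of 29 (24.1%), against 20.3% of all genes.

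Satellite cells are the myogenic stem cells of skeletal muscle. All 6 samples came from male C57BL/6 mice aged 8 to 10 weeks, with no transgene or treatment named in the labels, and 3 were pools of sorted cells from pharyngeal muscle while 3 were pools from limb muscle (gastrocnemius and quadriceps). Each pool held 150000 to 200000 cells, 10 to 30 mice were used per experiment, and the RNA was amplified before hybridization to Illumina bead arrays of 1 colour. The sources used here do not give the surface markers of the sort. Among the satellite cell markers, Pax7 read 4.95 to 6.03 in the pharyngeal and 7.67 to 8.14 in the limb pools (log2 normalized intensity) and was detected on all 6 arrays, and the same detection held for Myf5, Myod1, Cdh15, Calcr, Itga7, Vcam1 and Des. Epithelial markers were also present on the pharyngeal arrays, with Krt14 between 9.69 and 11.19 there against 4.64 to 4.88 in limb pools. In pooled cells a change in the share of a cell type and a change in RNA per cell cannot be told apart.

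MHC class I molecules consist of a heavy chain and the light chain beta-2 microglobulin (B2m), and show peptides from inside the cell to CD8+ T cells. The immunoproteasome cuts these peptides, the Tap1-Tap2 transporter carries them into the endoplasmic reticulum, Erap1 trims them, and tapasin (Tapbp), calreticulin (Calr), calnexin (Canx) and Pdia3 help the heavy chain fold and take a peptide. MHC class II molecules show peptides taken up from outside to CD4+ T cells, are mostly found on professional antigen-presenting cells, and need the invariant chain (Cd74) and H2-DM for loading. Nlrc5 and Ciita are the coactivators of class I and class II genes, and interferon gamma raises most genes of both classes.

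Promoters of both classes share a regulatory module that ends in the Y box, bound by the factor NF-Y, and the windows of 5 members are shown because they carry its core in different settings. Windows span 250 bases before to 50 bases after the RefSeq start (GRCm38.p6, the reference of the C57BL/6J strain), 5′ to 3′ on the gene's strand. Capitals mark the Y box core GATTGG, the kappaB core GGATTCC and an interferon-response pair, which is GAAA followed after any 2 bases by GAAA, each searched on both strands. No searched motifs overlapped in these windows.
B2m, chr2:122147437-122147736, plus strand: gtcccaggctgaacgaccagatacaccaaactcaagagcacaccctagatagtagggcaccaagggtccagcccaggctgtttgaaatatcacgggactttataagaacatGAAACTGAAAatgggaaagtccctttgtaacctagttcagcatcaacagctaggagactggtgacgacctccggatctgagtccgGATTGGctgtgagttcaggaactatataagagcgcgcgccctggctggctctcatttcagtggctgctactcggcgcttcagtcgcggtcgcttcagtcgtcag
H2-K1, chr17:34000298-34000597, minus strand: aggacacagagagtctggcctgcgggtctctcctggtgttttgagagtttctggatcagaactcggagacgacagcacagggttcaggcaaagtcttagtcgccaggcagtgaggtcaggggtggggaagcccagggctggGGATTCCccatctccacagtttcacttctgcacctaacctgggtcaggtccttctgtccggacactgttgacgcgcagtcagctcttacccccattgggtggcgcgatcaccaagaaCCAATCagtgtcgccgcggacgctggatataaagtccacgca
H2-T23, chr17:36032652-36032951, minus strand: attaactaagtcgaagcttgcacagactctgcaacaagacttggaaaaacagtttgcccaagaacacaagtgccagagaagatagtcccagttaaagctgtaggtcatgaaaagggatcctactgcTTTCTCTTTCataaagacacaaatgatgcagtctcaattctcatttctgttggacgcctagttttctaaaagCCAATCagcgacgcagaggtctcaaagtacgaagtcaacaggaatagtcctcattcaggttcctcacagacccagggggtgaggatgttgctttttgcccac
Tap1, chr17:34187306-34187605, plus strand: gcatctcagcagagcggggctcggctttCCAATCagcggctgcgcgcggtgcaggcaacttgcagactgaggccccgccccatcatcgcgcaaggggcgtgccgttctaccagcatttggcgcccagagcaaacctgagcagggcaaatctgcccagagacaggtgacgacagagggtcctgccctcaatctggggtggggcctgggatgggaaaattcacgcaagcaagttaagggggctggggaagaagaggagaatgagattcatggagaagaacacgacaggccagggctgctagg
H2-Aa, chr17:34287774-34288073, minus strand: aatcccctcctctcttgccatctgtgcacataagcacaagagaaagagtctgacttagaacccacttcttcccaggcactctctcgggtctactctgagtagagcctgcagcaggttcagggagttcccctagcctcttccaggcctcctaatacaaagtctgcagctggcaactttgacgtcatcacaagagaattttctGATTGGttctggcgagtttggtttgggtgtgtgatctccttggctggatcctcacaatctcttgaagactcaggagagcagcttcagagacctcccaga

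Of the 55 members 42 had a window in the RefSeq promoter table, and 29 of the 42 held the Y box core, in 67.4% of the member windows against 16.1% of all 32851 windows. In B2m, H2-T23 and H2-Aa the core lay 54, 52 and 49 bases before the start, and in H2-K1 it lay 8 bases after the annotated start. In Tap1 it lay 222 bases before the start. The kappaB core was found in 6 of 46 member windows, those of H2-K1, H2-D1, H2-Q6, H2-Q7 and H2-M5, against 3.79% of all windows. The interferon-response pair was in 10.9% of member windows, those of B2m, H2-T23, H2-T22, Erap1 and Psme1, against 3.44% of all. Member promoters of the H2 families are related by descent and are not independent of each other. The windows of Tap1 and Psmb9 lie on opposite strands and share 275 of 300 bases, as the genes start 226 bases apart on chromosome 17 (at 34187556 and 34187330) and point away from each other. The Y box core of the Tap1 window lies in the shared bases, so the same site is counted for both genes. These matches describe the letters and were not tested for use in the cells.

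Detection separated the roles before any comparison. On all 6 arrays 38 of the 95 probes were detected, 36 were detected on no array and 21 on 1 to 5 arrays. The number of member probes detected was 43, 46 and 49 on pharyngeal arrays 1, 2 and 3 and 45, 48 and 47 on limb arrays 1, 2 and 3, so that the groups overlapped. Both class Ia genes on the array, B2m and all 5 immunoproteasome and activator genes were tested, as were 6 of 7 genes of peptide transport and loading. The probe used was detected on all 6 arrays for 23 of the 29 tested members, and for 73.8% of all genes tested. In contrast, 10 of 26 class Ib genes, 3 of 5 class II chain genes, 1 of 6 class II loading genes and neither of the 2 coactivator genes were tested.

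**Figure D1:**
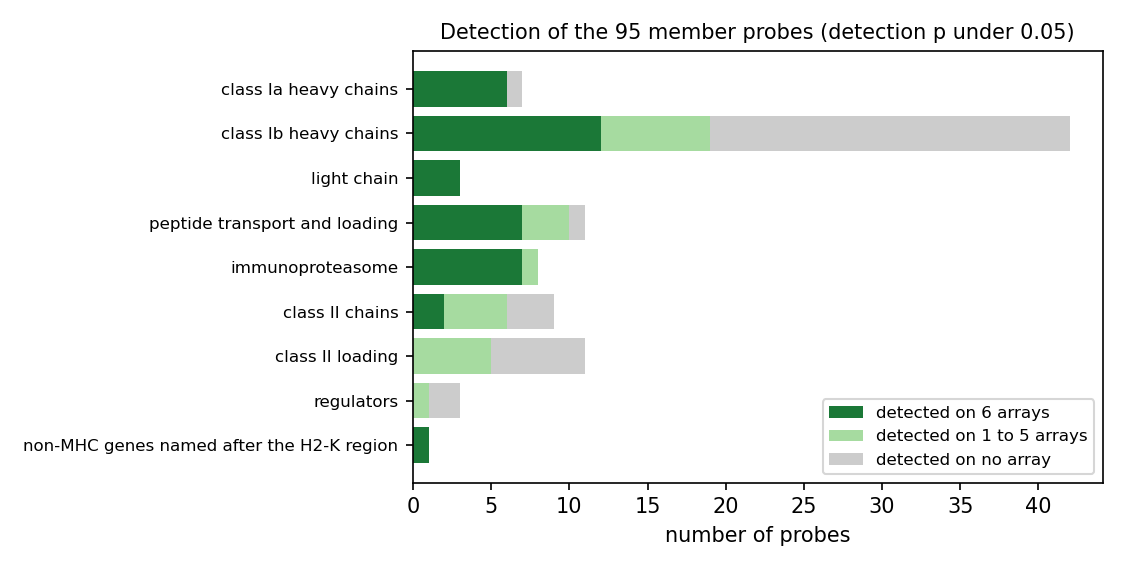
Number of probes (horizontal axis) in each role of the 95 member probes, coloured by whether the probe was detected on all 6 arrays, on 1 to 5 or on none (detection p under 0.05). Probes of class Ia, the light chain and the immunoproteasome were mostly detected on every array, and those of class II loading and the regulators on 5 arrays or fewer.

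Among the 29 tested genes 18 had a difference above 0 (higher in pharyngeal pools) and 11 below, with a median of 0.17 on the log2 scale against -0.06 for all genes tested, of which 44.5% were above 0. The differences ran from -0.94 to 1.55. The 7 genes with an unadjusted p under 0.05 were H2-Ab1, H2-K1, H2-Q7, H2-T23, Psmb8, Erap1 and H2-Ke6. The groups did not overlap for 8 of the 29 (27.6%), 6 with the pharyngeal pools above and 2 with them below, against 26.7% of all genes (11.7% above and 15.0% below). That share was near the share of all genes, as was the share at an unadjusted p under 0.05. The median SD within a group was 0.33 in the pharyngeal and 0.15 in the limb pools for members, and 0.36 and 0.22 for all genes. When every named probe past the filter was fitted by itself, none of the 47 member probes passed (lowest adjusted p = 0.0897, limma), against 2.58% of 18925 probes.

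**Figure D2:**
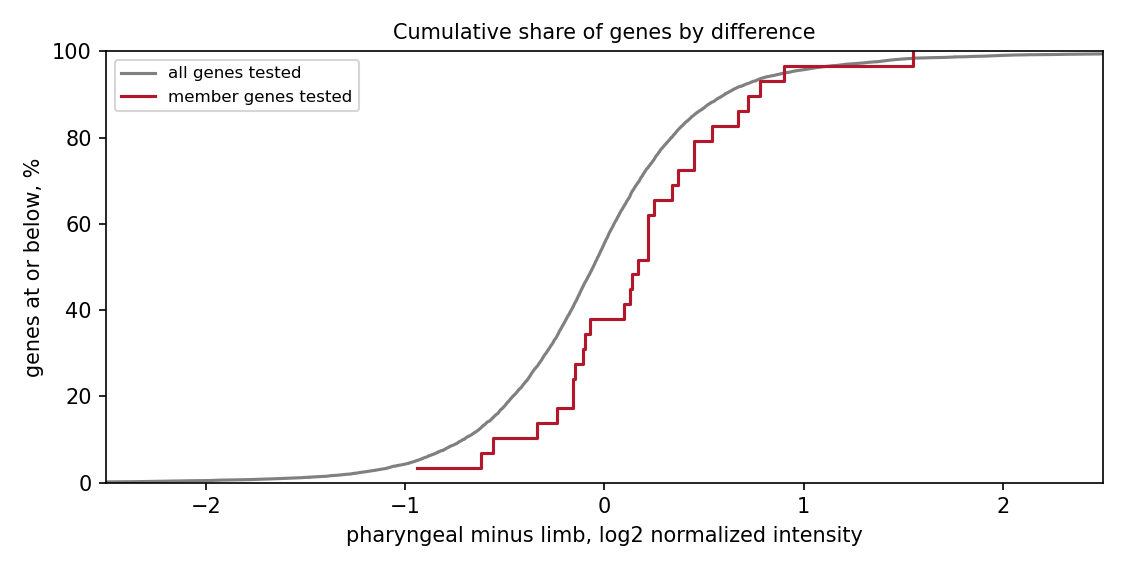
Cumulative share of genes (vertical axis, %) at or below each pharyngeal minus limb difference (horizontal axis, log2 normalized intensity, cut at -2.5 and 2.5) for all 11262 genes tested (grey) and the 29 member genes (red). The member curve lies to the right of the grey curve at its middle, with medians of 0.17 and -0.06.

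The class Ia heavy chains H2-K1 and H2-D1, the polymorphic chains that present peptides to most CD8+ T cells, were expressed in both muscles. H2-K1 read 8.72, 8.75 and 8.91 in pharyngeal pools 1 to 3 and 8.29, 8.51 and 8.23 in limb pools 1 to 3. Every pharyngeal pool lay above every limb pool, by 0.45 in the mean (1.36-fold, SE 0.19, 95% interval 0.01 to 0.88), which did not pass over all genes (adjusted p = 0.236, limma). Its 2 other probes gave 0.11, with overlapping groups, and 0.75, with groups apart. H2-D1 read 8.60, 9.34 and 9.36 in the pharyngeal and 8.59, 8.59 and 8.49 in the limb pools. Pharyngeal pools 2 and 3 stood above the limb pools, while pharyngeal pool 1 was level with limb pools 1 and 2. The difference was 0.54 (SE 0.25, 95% interval -0.05 to 1.13, adjusted p = 0.282), and its other detected probes gave 0.28 and 0.35, both with overlapping groups.

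B2m, without which class I heavy chains do not reach the surface stably, read 9.97, 10.19 and 10.16 in the pharyngeal and 10.06, 9.97 and 10.02 in the limb pools. The groups overlapped and the difference was 0.10 (1.07-fold, SE 0.18, 95% interval -0.32 to 0.51, adjusted p = 0.816). Another probe gave 0.14 and 1 more gave -0.30, each with overlapping groups. The intervals of the heavy chains and of B2m overlap, and whether their differences are unequal was not tested.

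**Figure D3:**
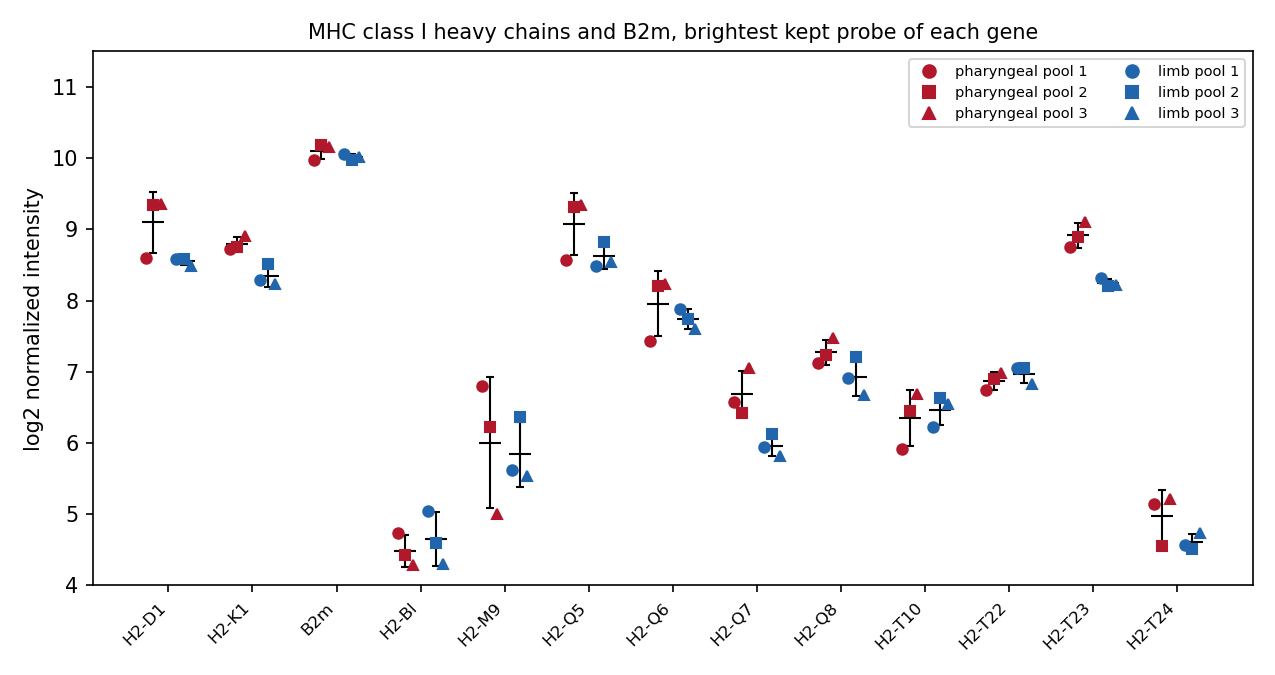
Log2 normalized intensity (vertical axis) of B2m and the 12 class I heavy chain genes tested, with each pharyngeal pool in red and each limb pool in blue (circle, square and triangle for pools 1, 2 and 3), and the mean and SD of each group in black (n = 3). Pharyngeal pools lie above all limb pools for H2-K1, H2-D1, H2-Q7 and H2-T23, and the groups overlap for the rest.

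Of the 26 class Ib genes, whose heavy chains vary little between mice and often have special ligands, 10 were tested and none passed, with a median difference of 0.28. H2-T23 encodes the heavy chain of Qa-1, which presents leader peptides of other class I chains to inhibitory NKG2A receptors on NK cells. It read 8.76, 8.89 and 9.11 in the pharyngeal and 8.32, 8.20 and 8.22 in the limb pools, with no overlap. The difference was 0.67 (1.59-fold, SE 0.19, 95% interval 0.23 to 1.11, adjusted p = 0.106, limma). With no background model, with the authors' processed table and with a trended, robust variance the call changed (adjusted p = 0.0377, 0.0377 and 0.0487), and over all alternatives it ran from 0.0377 to 0.334. The first 2 of these settings gave nearly the same values and are not independent of each other. A second probe of H2-T23 also separated the groups (0.55), and 1 more did not (-0.01), and the mean of the probes gave 0.40.

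H2-Q7 belongs to the Qa-2 genes, whose products can be tethered to the membrane by lipid. It read 6.58, 6.42 and 7.05 in the pharyngeal and 5.95, 6.12 and 5.82 in the limb pools, again with no overlap. The difference was 0.72 (1.65-fold, SE 0.23, 95% interval 0.18 to 1.25, adjusted p = 0.144), and 0.37 with no background model and with the processed table. The neighbouring Qa-2 genes H2-Q6 and H2-Q8 differed by 0.22 (SE 0.26, adjusted p = 0.687) and 0.34 (SE 0.22, adjusted p = 0.443), and their second probes by 0.63 and 0.85 with the groups apart.

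The probe used for H2-Q5 read 8.57, 9.31 and 9.34 in the pharyngeal and 8.49, 8.83 and 8.55 in the limb pools. It was low in pharyngeal pool 1 and high in pools 2 and 3, as were the probes of H2-D1 and of H2-Q6 (7.44, 8.21 and 8.23). The other 2 probes of H2-Q5 were detected on no array. Class I genes are close copies of each other, and how far a probe named for one also binds transcripts of another was not tested. Values of single H2-K, H2-D, H2-Q and H2-T genes are therefore uncertain as to gene.

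H2-T10 and H2-T22, ligands of gamma delta T cells, differed by -0.11 (SE 0.26, adjusted p = 0.851) and -0.10 (SE 0.19, adjusted p = 0.818), with overlapping groups. H2-M9 spread from 5.0 to 6.80 within the pharyngeal pools alone, with a difference of 0.17 (SE 0.47). H2-T24 (0.37, SE 0.24) and H2-Bl (-0.16, SE 0.25) were detected on 3 of the 6 arrays and lay near background. The difference of H2-T24 had an adjusted p = 0.434, that of H2-M9 0.883 and that of H2-Bl 0.772.

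The 16 class Ib genes below the filter included H2-M3, which presents formylated bacterial peptides and was detected on 1 pharyngeal and 1 limb array. H2-Q1 and H2-M10.1 were detected on 1 limb array each. No probe was detected on any array for H2-Q2, H2-Q10, H2-T3, H2-T18, H2-M1, H2-M2, H2-M5, H2-M10.2, H2-M10.3, H2-M10.4, H2-M10.5, H2-M10.6 and H2-M11. Several of these are known from other organs, as H2-Q10 is secreted by the liver, H2-T3 is the thymus leukaemia antigen of gut epithelium and the H2-M10 genes are used in the vomeronasal organ. A level not well above background is not a measured absence.

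Of the 6 genes of peptide transport and loading tested 3 had differences above 0 and 3 below, and none passed. Tapbp, which holds empty class I molecules at the transporter, read 11.36, 11.48 and 11.38 in the pharyngeal and 11.36, 11.30 and 11.15 in the limb pools. The difference was 0.14 (SE 0.18, 95% interval -0.28 to 0.55, adjusted p = 0.720). The oxidoreductase Pdia3 read 9.04, 9.15 and 9.43 against 9.02, 8.99 and 8.95 in limb pools, just without overlap (0.22, SE 0.19, adjusted p = 0.574). The lectin chaperones Calr and Canx differed by 0.13 (SE 0.18, adjusted p = 0.738) and -0.07 (SE 0.19, adjusted p = 0.872), both with overlapping groups.

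Erap1, the aminopeptidase that trims peptides to the length class I holds, read lower in every pharyngeal pool than in any limb pool. Its values were 5.32, 5.47 and 5.05 in the pharyngeal and 5.98, 5.77 and 5.75 in the limb pools. The difference was -0.56 (1.47-fold lower, SE 0.20, 95% interval -1.02 to -0.09), which did not pass over all genes (adjusted p = 0.186, limma). It was -0.21 with no background model and with the authors' processed table. A second kept probe, detected on 3 of 6 arrays, gave 0.03, and the mean of both gave -0.26.

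The transporter subunit Tap2 read 5.68, 6.05 and 6.29 in the pharyngeal and 6.79, 5.02 and 6.93 in the limb pools. Limb pool 2 was far below the other limb pools, and the difference was -0.24 (SE 0.50, adjusted p = 0.836). It was 0.04 and 0.10 without limb pools 1 and 3, and -0.86 was its lowest value in the fits without 1 pool. The only probe of Tap1 was detected on limb array 2 alone and was not tested.

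Immunoproteasome subunits, which replace the standard catalytic subunits under interferon, gave differences of both signs, 1 above and 4 below 0 of 5 with the activators, and none passed. Psmb8 read 6.00, 6.51 and 5.34 in the pharyngeal and 5.16, 4.60 and 5.39 in the limb pools, with pharyngeal pool 3 inside the range of the limb pools. The difference was 0.90 (SE 0.35, 95% interval 0.09 to 1.71, adjusted p = 0.207), but a second probe, also detected on all 6 arrays, gave -0.20. The mean of both gave 0.35, as did the first probe with no background model and with the processed table. Psmb9, whose promoter window overlaps the Tap1 window printed above, read 5.68, 5.70 and 6.76 in the pharyngeal and 6.62, 6.79 and 6.60 in the limb pools. Pharyngeal pools 1 and 2 were lower than every limb pool and pool 3 was among them (-0.62, SE 0.31, adjusted p = 0.323). The difference was -0.99 without pool 3, and -0.30 with no background model and with the processed table. Psmb10 read 8.27 to 9.04 against 8.48 to 8.93 (-0.16, SE 0.26, adjusted p = 0.788).

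The activator subunits Psme1 and Psme2, which form the PA28 cap of the proteasome, differed by -0.15 (SE 0.24, adjusted p = 0.784) and -0.34 (SE 0.31, adjusted p = 0.594). Psme2 was detected on 1 of 3 pharyngeal and 3 of 3 limb arrays at levels near background. The standard catalytic subunits that the immunoproteasome subunits replace, Psmb5, Psmb6 and Psmb7, differed by 0.05, -0.18 and 0.02, and 0 of 3 passed (lowest adjusted p = 0.711).

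**Figure D4:**
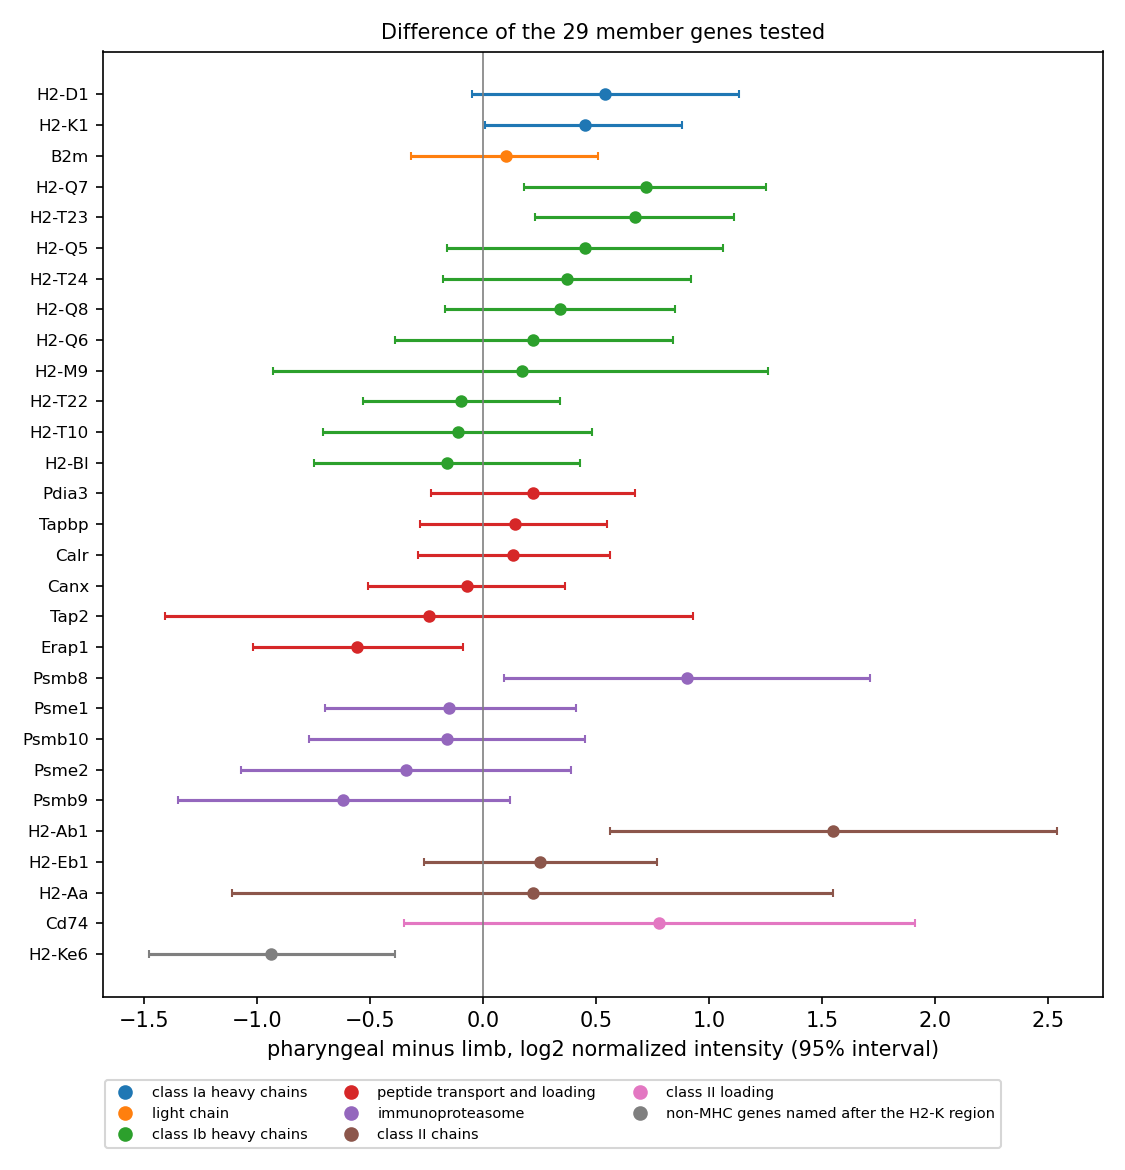
Pharyngeal minus limb difference (horizontal axis, log2 normalized intensity) of the 29 member genes tested, with the 95% interval from the moderated standard error, coloured by role. The widest ranges belong to H2-Aa, Tap2, Cd74, H2-M9 and H2-Ab1, and the intervals of H2-Ab1, H2-T23, H2-Q7, H2-K1, Psmb8, Erap1 and H2-Ke6 do not include 0 before adjustment.

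Class II chains were near background in limb pools. H2-Aa and H2-Ab1 read highest in pharyngeal pool 3, H2-Eb1 in pool 2 and the detected probe of H2-Eb2 in pool 1. H2-Ab1, the beta chain of I-A, the class II molecule that C57BL/6 mice express, read 6.57, 5.79 and 7.61 in the pharyngeal and 5.20, 5.06 and 5.06 in the limb pools. All pharyngeal pools lay above the limb pools, and the spread among them (SD 0.91) was far wider than among limb pools (SD 0.08). The difference was 1.55 (2.92-fold, SE 0.42, 95% interval 0.56 to 2.54, adjusted p = 0.102, limma). Without pharyngeal pool 2 it was 1.96 and passed (adjusted p = 0.0365), and without pharyngeal pool 3 it was 1.09. With no background model and with the authors' processed table it was 0.72, and with an offset of 50 it was 1.01. A second probe read 5.16, 5.21 and 6.40 against 4.61, 4.72 and 4.91 (0.84, groups apart). The remaining probe, detected on 1 array of each group, read 6.59 in pharyngeal pool 3 and 4.37 to 4.73 on the others.

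H2-Aa, the alpha chain that pairs with H2-Ab1, read 4.37, 4.42 and 6.58 in the pharyngeal and 4.69, 5.0 and 5.01 in the limb pools. It was detected in pharyngeal pool 3 and in all limb pools, but not in pharyngeal pools 1 and 2. The difference of 0.22 (SE 0.57, adjusted p = 0.872) turned to -0.50 without pharyngeal pool 3. Pharyngeal pool 1 thus read high for the first probe of H2-Ab1 and low for H2-Aa. H2-Eb1 was detected on 2 pharyngeal arrays and 1 limb array (0.25, SE 0.22, adjusted p = 0.571), and H2-Eb2 on 2 pharyngeal arrays. H2-Ea was detected on no array. In mice of the b haplotype such as C57BL/6 its promoter carries a deletion that silences it.

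The invariant chain Cd74 read 4.42, 5.65 and 6.52 in the pharyngeal and 4.55, 4.85 and 4.85 in the limb pools, and was detected on 2 arrays of each group. The groups overlapped through pharyngeal pool 1 (0.78, SE 0.48, 95% interval -0.35 to 1.91, adjusted p = 0.418). Without pharyngeal pool 1 the difference was 1.31 (adjusted p = 0.0727), without pool 2 it was 0.46 and without pool 3 it was 0.30. With no background model and with the authors' processed table it was also 0.30, and with the mean of kept probes 0.47. A second probe read 6.70 in pharyngeal pool 3, 5.79 in limb pool 3 and 4.28 to 4.70 elsewhere, and the last was detected on no array. H2-DMb1, a chain of the class II editor H2-DM, was detected on 2 pharyngeal arrays and highest in pool 3 (5.43, against 4.47 to 4.76 on the others). H2-DMa was detected on 1 pharyngeal array and H2-Ob on 1 array of each group, and H2-DMb2 and H2-Oa on none.

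**Figure D5:**
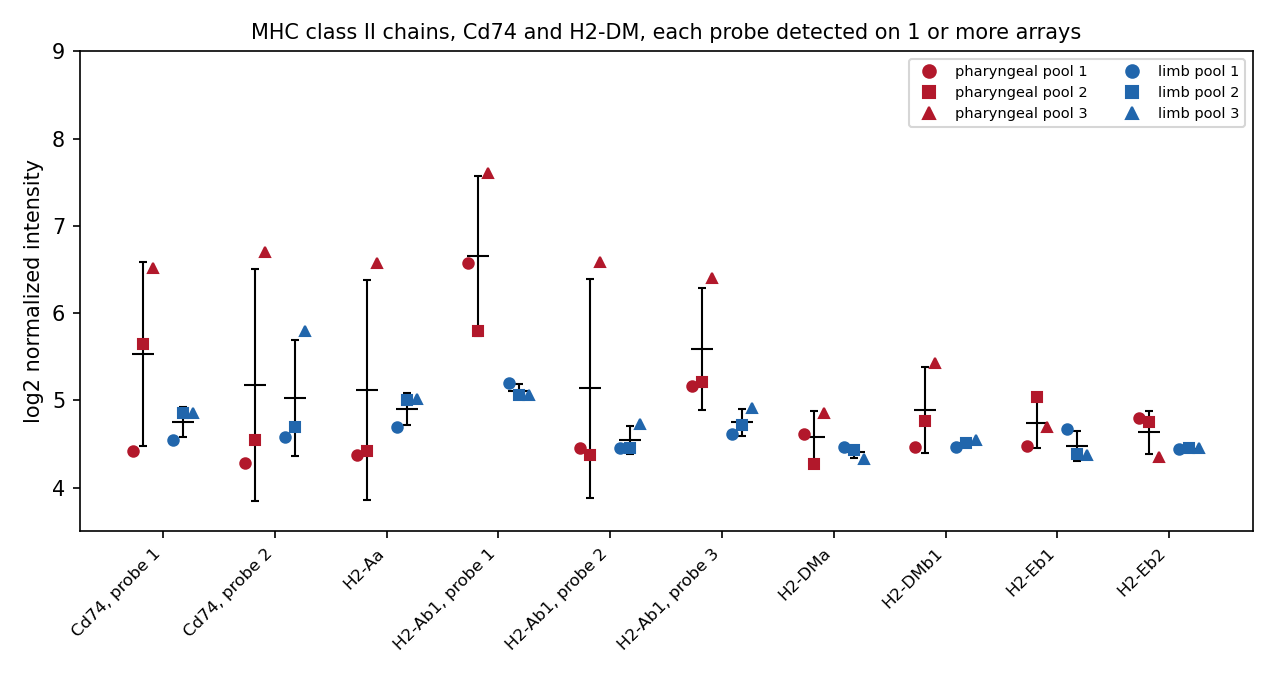
Log2 normalized intensity (vertical axis) of each probe of H2-Aa, H2-Ab1, H2-Eb1, H2-Eb2, Cd74, H2-DMa and H2-DMb1 that was detected on 1 or more arrays, with pharyngeal pools in red and limb pools in blue (circle, square and triangle for pools 1, 2 and 3), and the mean and SD in black (n = 3). Pharyngeal pool 3 is the highest point for H2-Aa, H2-DMa, H2-DMb1 and every probe of H2-Ab1 and Cd74.

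Markers of other cell types that the pools could hold were partly detected. Lyz2, Siglech, Coro1a and Blnk, markers of macrophages, dendritic cells, white blood cells and B cells in that order, were detected on all 6 arrays. The white blood cell gene Ptprc was detected by 1 of its probes on 1 pharyngeal array, and Itgam, C1qa, Itgax, Flt3, Xcr1, Ccr7, Cd209a, Pax5, Cd3d, Cd3e and Cd3g on none. In between, Cd2 was detected on 5 arrays and Laptm5, Cd53, Vav1, Csf1r, Tyrobp, C1qb, Aif1 and Zbtb46 on 4. Adgre1 and Ms4a1 were detected on 3, and Fcer1g and C1qc on 2. Of 11 macrophage markers with a probe 6 were tested and none passed, of 6 white blood cell markers 4, of 7 dendritic cell markers 2, and of 4 B cell markers 2, also with none passed. The summed level of the macrophage markers ran from 9.08 to 10.09 in pharyngeal and 7.59 to 8.68 in limb pools (log2), with pharyngeal pool 3 the highest. Lyz2 carried that sum, with 8.65, 8.97 and 9.84 in the pharyngeal and 6.41, 8.02 and 7.57 in the limb pools (1.82, SE 0.47, adjusted p = 0.0887), and the differences of the other 5 ran from -0.05 to 0.36. The dendritic cell markers ran from 8.77 to 9.52 and 8.51 to 8.78, highest in pharyngeal pool 1, with Siglech at 8.41 to 9.42. That of the white blood cell markers ran from 6.77 to 7.84 and 7.34 to 7.40, also highest in pharyngeal pool 3, and that of the B cell markers from 5.95 to 6.52 and 6.11 to 6.43, highest in pharyngeal pool 1. The epithelial markers, of which 7 of 8 were tested and 5 passed, ran from 11.04 to 12.60 and 8.10 to 8.70, again highest in pharyngeal pool 3. For all 7 tested every pharyngeal pool lay above every limb pool, against 11.7% of all genes. All 5 fibroblast markers tested were detected on all 6 arrays, as were the endothelial markers Cdh5 and Esam. Pharyngeal pools lay below all limb pools for 3 of these 5 and for 1 endothelial marker of 6, Tek, against 15.0% of all genes. The fibroblast marker Dcn read 10.57 to 10.79 in the pharyngeal and 10.93 to 11.45 in the limb pools. Of the endothelial, fibroblast and T or NK cell markers 0 of 6, 0 of 5 and 0 of 1 tested passed. All 8 satellite cell markers had differences below 0, and for 7 of them every pharyngeal pool lay below every limb pool. Of the 8 satellite cell markers 4 passed as lower in pharyngeal pools (Pax7, Myf5, Cdh15 and Calcr). Each of these 4 lost its call without limb pool 2 (adjusted p up to 0.0900), as did the epithelial genes Cdh1 (up to 0.151) and Esrp1 (up to 0.0671), while Krt14, Krt5 and Krt8 kept theirs in all 6 fits without 1 pool. Without limb pool 3 Pax7, Myf5, Calcr, Cdh1 and Esrp1 also lost their calls, and without limb pool 1 Pax7, Cdh1 and Esrp1 did. The count over all genes fell from 374 to 80, 62 and 58 without limb pools 1, 2 and 3 in that order. Over the fits without 1 pool Pax7 ran from -2.43 to -1.92, Myf5 from -2.12 to -1.75 and Cdh15 from -2.55 to -2.08. Calcr ran from -2.61 to -2.14, Cdh1 from 1.55 to 2.06 and Esrp1 from 2.80 to 3.68. The costimulatory ligand Cd86 read 7.45 in pharyngeal pool 3 and 4.40 to 4.80 on the other arrays (1.10, SE 0.71, adjusted p = 0.443). The part of such cells in the class II and class I values was not tested.

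Both coactivators were below the filter. Ciita was detected on no array with either of its probes, and Nlrc5 was detected on 1 limb array. The transcription factor Irf1, which switches on class I and Tap1 genes, read 10.79, 10.78 and 10.96 in the pharyngeal and 10.73, 10.39 and 10.47 in the limb pools (0.32, SE 0.19, adjusted p = 0.405). Of 21 signalling and transcription genes of the MHC tested, 0 passed in either direction, with a median difference of -0.07. Among the kinases of the interferon receptors, Jak1 (0.64, SE 0.20, adjusted p = 0.130) and Jak2 (0.87, SE 0.28, adjusted p = 0.143) read higher in every pharyngeal pool than in any limb pool. Tyk2 overlapped between the groups (0.11, SE 0.27, adjusted p = 0.861, limma), as did the receptor gene Ifngr1 (-0.80, SE 0.63, adjusted p = 0.533). Of the 21 genes 10 had differences above 0 and 11 below. Groups were apart for 6 of them (28.6%), 6 with the pharyngeal pools above and 0 with them below. Of all genes 26.7% were apart, 11.7% above and 15.0% below. Whether this list differs from all genes in direction was not tested. The Y box and X box factors Nfya, Nfyb, Nfyc, Rfxap, Rfxank and Rfx5 were among those that did not pass.

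H2-Ke6 has an H2 name from its place beside H2-K1 and encodes Hsd17b8, a steroid and fatty acid dehydrogenase of mitochondria, not an MHC protein. It read 7.83, 8.18 and 8.39 in the pharyngeal and 9.30, 9.10 and 8.81 in the limb pools, with no overlap. The difference was -0.94 (1.91-fold lower, SE 0.23, 95% interval -1.48 to -0.39, adjusted p = 0.0795, limma), the lowest adjusted p of the 29 genes. It passed with no background model (adjusted p = 0.0437), with the authors' processed table (0.0438) and with a trended, robust variance (0.0305), and over all alternatives it ran from 0.0305 to 0.259. No background model and the processed table are not independent, as they gave nearly the same values.

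Genes around the members gave 3 calls, where 3.32% of all 11262 genes tested passed. Whether these lists differ from all genes was not tested. Of 22 interferon-induced genes 1 rose and 0 fell, with a median of 0.28, and it was the guanylate-binding protein Gbp2, which read 8.83, 9.11 and 8.34 in the pharyngeal and 7.31, 7.07 and 7.57 in the limb pools (1.44, SE 0.26, adjusted p = 0.0308). Ifi47 followed with the same difference of 1.44 (SE 0.33, adjusted p = 0.0665). Of 6 costimulatory and inhibitory ligands 1 rose, the adhesion molecule Icam1 that steadies T cell contact, with 10.05, 9.91 and 10.05 against 8.66, 7.66 and 7.57 (2.04, SE 0.31, adjusted p = 0.0169). The checkpoint ligand Cd274 did not pass (0.53, SE 0.21, adjusted p = 0.217). Of 6 MHC class I-like genes outside the H2 names 1 rose, the protein C receptor Procr, with 8.79, 8.82 and 8.71 against 8.01, 7.83 and 7.65 (0.95, SE 0.19, adjusted p = 0.0423). The neonatal Fc receptor chain Fcgrt, which also pairs with B2m, did not pass (-0.35, SE 0.21, adjusted p = 0.402).

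These 3 calls did not hold under all alternatives. Leaving out limb pool 2, or limb pool 3, or the filter on detection ended the call of Icam1 (adjusted p up to 0.100, limma). When each pool was left out in turn, Gbp2 kept its call once, with pharyngeal pool 3 gone (adjusted p up to 0.154), and Procr never (up to 0.203). Gbp2 also lost its call with no filter on detection and with the mean of kept probes, and Procr with every kept probe fitted. Of the other lists, 0 of 11 chaperones and translocon genes, 0 of 5 cytosolic peptidases, 0 of 3 other proteasome activators and 0 of 7 endosomal genes of the class II pathway passed. Among the 11 chaperones and translocon genes Pdia6 had the lowest adjusted p (1.14, SE 0.33, adjusted p = 0.115, limma). The protease Ctss, which cuts the invariant chain, read 5.05, 4.67 and 5.65 in the pharyngeal and 5.69, 6.04 and 6.26 in the limb pools (-0.88, SE 0.30, adjusted p = 0.163).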

How the data were processed

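RNA of the 6 pools was amplified and measured on the MouseWG-6 v2.0 bead array of Illumina. For each array the authors deposited the intensity of every probe before normalization, its detection p-value, and in a second table its normalized intensity. GenomeStudio 2011.1 was used, per the submitters' processing notes, and the detection p-value gives the proportion of negative controls that exceeded a probe, per the series' design text. The lowest unnormalized intensity lay between 76.1 and 82.1 on each array, so no background had been subtracted. On an array 20919 to 22793 of 45281 probes were detected. The platform annotation names 1 gene for 34885 probes.

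Background was modelled with limma 3.58.1 in R 4.3.3 (normexp from the detection p-values, offset 16), then arrays were quantile normalized and put on the log2 scale. The offset understates folds of dim genes. Probes detected on at least 3 of 6 arrays were kept (22633), and each gene took its brightest kept probe (11262 genes). Differences between groups were fitted by lmFit and moderated by eBayes, with no covariate (2-sided, Benjamini-Hochberg over all genes, threshold 0.05), and SE is the moderated standard error. The fit was tested on simulated data. Groups had 3 arrays each, which limits the precision, and p-values measure the spread between pools. All arrays lay on 1 chip with the groups on separate positions, so position and group cannot be told apart. Members and lists were chosen with earlier results of these data known. All tested members were described, and from each list those past the threshold were named. The other list genes given were not always those with the smallest adjusted p. Nothing in the labels says that pools of the same replicate number pair. Deviations of same-numbered pools from their group means had correlations of -0.010, -0.013 and 0.000. These values cannot show whether such pools were prepared together. Alternatives changed the background model, its offset, the scaling, the source table, the detection filter, the probe rule, the variance model, array weights, a replicate block and leaving out each pool.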

Additional observations from a re-analysis of the deposited data

How the results depend on the processing

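Over 18 alternatives the count of all genes past the threshold was 374 in the analysis as reported, and 292 with no filter on detection p, 568 with a trended, robust variance and 139 with the replicate block. Without 1 pool it ran from 58 (without limb pool 3) through 62 and 80 (without limb pools 2 and 1) to 360. No member passed in the analysis as reported. With no background model, the processed table and the trended, robust variance 1 member was higher (H2-T23) and 1 lower (H2-Ke6), and without 1 pool 0 to 1 were higher (H2-Ab1, without pharyngeal pool 2) and 0 lower. No background model and the processed table gave nearly the same values (478 and 479 genes past the threshold) and are not independent. The replicate block gave 0 higher and 0 lower members, and with it Gbp2, Procr, Pax7, Myf5 and Cdh1 did not pass. Of 507 values of single members under the alternatives 13, from 8 genes, changed sign, and the reported differences of these genes were at most 0.24 in size. With median scaling Canx was 0.08, H2-T10 0.01, H2-T22 0.06 and Psme1 0.00. With the mean of kept probes B2m was -0.02 and H2-T10 0.02, and with array weights H2-M9 was -0.08. Without pharyngeal pool 1 H2-M9 was -0.22, H2-T10 0.10 and Psme1 0.03. Tap2 was 0.04 without limb pool 1. Over the fits without 1 pool H2-Aa ran from -0.50 to 0.57, H2-M9 from -0.22 to 0.68, H2-T10 from -0.28 to 0.10, Psme1 from -0.34 to 0.03 and Tap2 from -0.86 to 0.10. The causes were not tested. Signal near background limits what can be said of H2-Aa, H2-Eb1, H2-T24, H2-Bl, Psme2 and Cd74, each undetected on at least 1 array.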
